A study of Mus musculus with 94 samples.

Results

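Amino acid transporters were followed through single basophils of mouse bone marrow. The set holds 10 genes of the 46078 gene identifiers in the table: Slc7a1, Slc7a4, Slc7a5, Slc7a6, Slc7a8, Slc7a11, Slc3a2, Slc1a5, Slc38a2 and Slc6a9. Slc7a1, Slc7a4 and Slc6a9 were chosen by their measured difference between the CD34 gates in these same cells, so that difference is given below as a description and supports nothing. The other 7 were taken as their relatives or partners, with the results of these data known. Basophils are granulocytes that carry the IgE receptor FcεRI, and CD34 marks the surface of blood stem cells and progenitors. The samples were 94 single cells from female C57BL/6 mice without a labelled treatment, 47 sorted as CD34-positive and 47 as CD34-negative. All were live cells that lacked lineage markers and Sca1 and carried FcεRI. The design names 3 mice and no age, and the labels assign no cell to a mouse, so each gate counts as 1 sample and no test between gates was made.

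Amino acids cross the cell membrane through carrier proteins with overlapping substrates. Slc7a1 (CAT1) is the main carrier of arginine, lysine and ornithine in many cells. Slc7a5 (LAT1), Slc7a6 (y+LAT2), Slc7a8 (LAT2) and Slc7a11 (xCT) are light chains that reach the membrane only when bound to the heavy chain Slc3a2 (CD98, 4F2hc), and the identity of the light chain sets what is carried. Slc1a5 (ASCT2) and Slc38a2 (SNAT2) bring in glutamine and other small neutral amino acids, and Slc6a9 (GlyT1) brings in glycine. Shortage of amino acids raises translation of the transcription factor ATF4, which binds amino acid response elements in many transporter genes, and LAT1 supply of leucine is known as an input to the growth kinase complex mTORC1.

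The promoter sequences are shown because several of these genes are known targets of ATF4. They come from RefSeq (GRCm38.p6), as 250 bases before to 50 bases after an annotated start. The table matched 7 of the 10 genes (all but Slc7a4, Slc7a5 and Slc1a5), with 11 start sites in all. Printed 5′ to 3′ are Slc7a11, where the letters TGATGNAA (the core of the amino acid response element, both strands) are in capitals, then the first start sites of Slc7a1 and Slc6a9, the members whose gate difference was largest among those in the table, and Slc7a8, the light chain with the highest level per length.
Slc7a11, chr3:50443564-50443863, minus strand: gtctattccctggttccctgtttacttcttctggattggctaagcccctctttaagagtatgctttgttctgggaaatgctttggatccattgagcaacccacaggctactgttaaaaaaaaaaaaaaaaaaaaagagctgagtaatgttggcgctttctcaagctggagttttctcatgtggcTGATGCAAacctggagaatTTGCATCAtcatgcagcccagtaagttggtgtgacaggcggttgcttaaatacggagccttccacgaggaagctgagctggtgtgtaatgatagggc
Slc7a1, chr5:148399855-148400154, minus strand: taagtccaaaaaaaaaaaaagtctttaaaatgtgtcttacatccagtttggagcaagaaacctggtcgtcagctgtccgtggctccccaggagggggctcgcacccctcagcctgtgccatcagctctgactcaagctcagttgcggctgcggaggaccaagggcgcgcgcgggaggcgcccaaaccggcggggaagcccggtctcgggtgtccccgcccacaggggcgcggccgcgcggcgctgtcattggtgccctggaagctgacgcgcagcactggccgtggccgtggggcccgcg
Slc6a9, chr4:117835008-117835307, plus strand: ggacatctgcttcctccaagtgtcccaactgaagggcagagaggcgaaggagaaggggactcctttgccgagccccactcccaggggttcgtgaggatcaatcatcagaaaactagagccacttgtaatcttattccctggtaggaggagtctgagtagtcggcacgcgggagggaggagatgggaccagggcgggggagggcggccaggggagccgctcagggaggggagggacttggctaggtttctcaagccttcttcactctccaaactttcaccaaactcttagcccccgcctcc
Slc7a8, chr14:54781837-54782136, minus strand: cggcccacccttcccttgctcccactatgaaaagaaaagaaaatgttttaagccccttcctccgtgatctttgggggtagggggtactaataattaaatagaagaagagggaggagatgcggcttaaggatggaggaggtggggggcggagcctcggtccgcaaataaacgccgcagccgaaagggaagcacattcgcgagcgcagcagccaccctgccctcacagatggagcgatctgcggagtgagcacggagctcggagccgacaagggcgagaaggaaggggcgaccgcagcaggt
The Slc7a11 window held 2 cores on opposite strands, beginning 66 and 47 bases before the start. A core stood in 3.97% of 32851 promoter windows of the same length, and 2 or more in 0.0700%. None of the other 10 windows held the core, the GATA motif AGATAA (in 11.2% of all windows) or the E-box CACGTG (in 7.15%), on either strand. In the list of ATF4 and its targets described below, 7 of 22 genes with a window held a core, among them Asns, Chac1 and Trib3. For the aminoacyl-tRNA synthetases it was 5 of 12 and for other amino acid transporters 2 of 22, beside 4.51% of the 27025 genes with a window in the table. These matches describe letters and show no binding. Bases outside the windows, including the rest of each gene, were not searched, so a window without a core does not mean a gene without one.

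Per the deposited counts, gene reads summed to 33444417 over the 46 CD34-negative cells kept (262944 to 938322 per cell) and to 30031728 over the 46 CD34-positive cells kept (374011 to 1154738). In each gate 1 cell with under 50000 gene reads was left out. CPM below means reads per 1000000 gene reads, and a log2 fold is CD34-positive over CD34-negative on the log2(CPM + 1) scale of reads summed over a gate. Intervals of 95% on reads and folds cover counting error only, since the reads carry no molecular identifiers. Those on shares of cells cover the sampling of cells, those on list medians the spread between genes, and none covers differences between mice. Cd34 stood at 0.209 CPM in the CD34-negative and 59.9 CPM in the CD34-positive gate, and Kit at 0.179 and 109.2 CPM. All 15 basophil markers had reads in both gates, 3 of them at least 2-fold higher and 7 at least 2-fold lower in CD34-positive cells, and their part in the transporter levels was not tested. The median number of gene reads per spike-in (ERCC) read was 6.87 in CD34-negative and 14.4 in CD34-positive cells, so scaling by ERCC reads moves nearly every fold up, and the median over the 12460 genes tested (reads in at least 10 of the kept cells) goes from 0.19 to 1.04. At an equal draw of 200000 gene reads, the median CD34-negative cell showed 4520.5 genes and the median CD34-positive cell 6519.

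The 10 genes covered levels from absent to among the well-detected genes of the cell. Slc7a8, Slc3a2, Slc1a5 and Slc38a2 were found in most cells of both gates, Slc7a5 and Slc7a6 in some cells of each, and Slc7a11 in almost none. Slc7a1 and Slc7a4 were found nearly only among CD34-positive cells, and Slc6a9 nearly only among CD34-negative cells. At the draw of 200000 gene reads the median cell had a read of 5 of the 10 genes in the CD34-negative gate (range 2 to 7) and of 6 in the CD34-positive gate (range 4 to 8). The mean ± SD over cells was 4.70 ± 1.05 and 5.91 ± 1.07, beside the higher number of all genes detected in the CD34-positive cells.

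**Figure D1:**
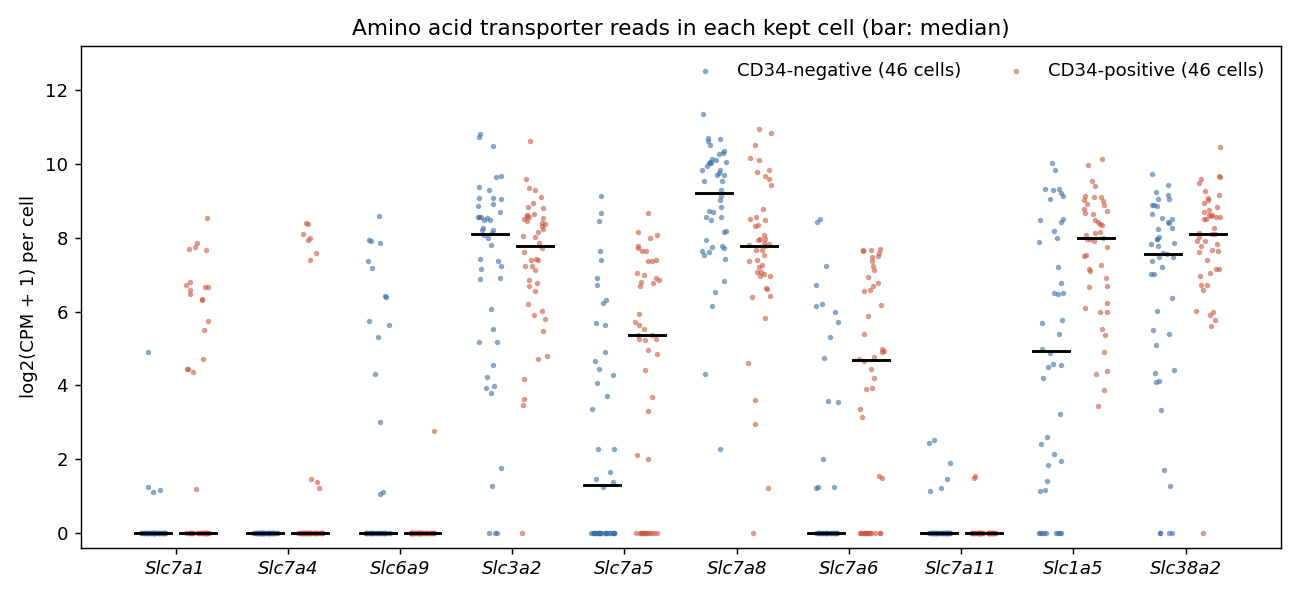
Level of each transporter in each kept cell, as log2(CPM + 1) on the vertical axis, with CD34-negative cells in blue, CD34-positive cells in red (46 per gate) and the median as a bar. Slc7a1, Slc7a4, Slc6a9 and Slc7a11 have a median of 0 in both gates, while the medians of Slc1a5 stand at 29.5 and 253 CPM.

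Past 2-fold by summed reads, 3 of the 10 genes stood higher among CD34-positive cells (Slc7a1, Slc7a4 and Slc7a6), against 21.7% of all 12460 genes, and 1 was lower (Slc6a9), against 10.1%. Since 3 of these 4 were chosen by this contrast, nothing is read from the counts. The split of all genes depends on the scaling, with 51.8% higher and 2.25% lower under ERCC scaling, 17.7% and 13.98% with TMM factors and 17.4% and 14.1% with scran size factors. Just outside the 2-fold line stood Slc7a8 at a log2 fold of -0.83 and Slc7a5 at 0.71, and just inside it Slc7a6 at 1.11. Of the 10 genes, 9 passed the filter of reads in at least 10 kept cells, and Slc7a11 did not.

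**Figure D2:**
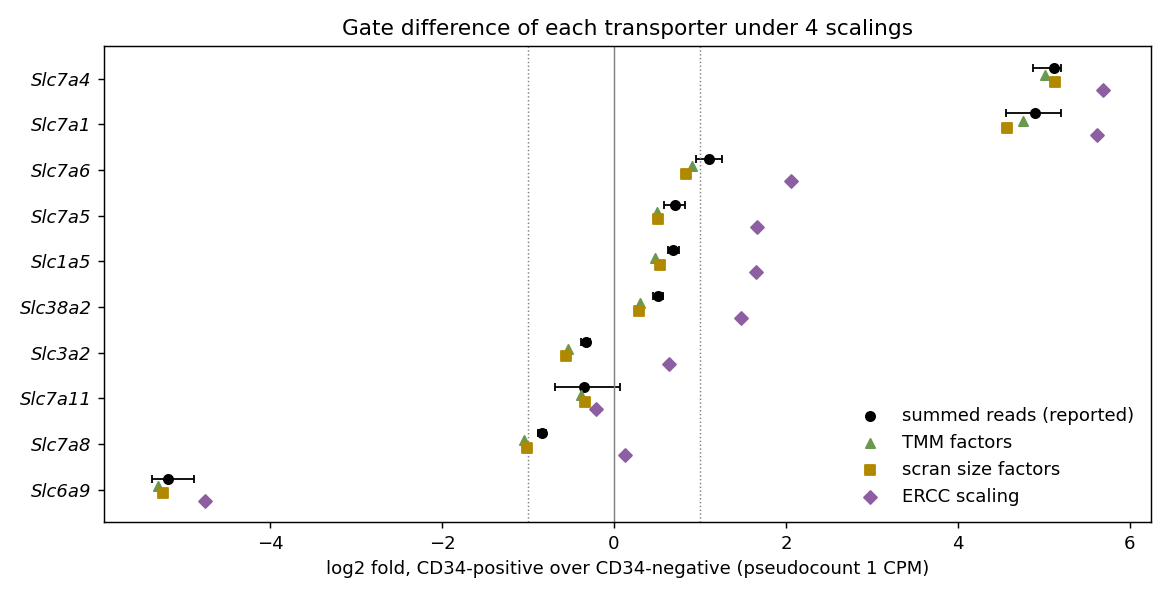
Log2 fold of each transporter (CD34-positive over CD34-negative, pseudocount 1 CPM) from summed gene reads with its 95% counting interval (black), and with TMM factors, scran size factors and ERCC scaling. Slc7a8 goes from -0.83 with gene reads to 0.13 with ERCC scaling and Slc3a2 from -0.33 to 0.63, while Slc7a1 and Slc7a4 stay above 4 and Slc6a9 below -4 in all 4 scalings.

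The cationic carrier Slc7a1 (ENSMUSG00000041313, chr5:148327410-148399904 on the mm10 build, as are all positions below) was a gene of a subset of CD34-positive cells. Its lowest, median and highest levels were 0, 0 and 28.7 CPM in CD34-negative cells and 0, 0 and 368 CPM in CD34-positive cells. A read was found in 20 of 46 CD34-positive cells (43.5%, 28.9% to 58.9%) and in 2 of 46 CD34-negative cells (4.35%, 0.531% to 14.8%) at the equal draw. Where it was present in the CD34-positive gate it was well covered, with at least 10 reads in 19 of its 20 cells and a median of 90.9 CPM among them. The summed levels were 0.658 CPM (22 reads) and 48.5 CPM (1456 reads), a ratio of 73.7 (46.2 to 123.8) and a log2 fold of 4.90. One CD34-negative cell, number 5, held 86.4% of that gate's Slc7a1 reads, and the log2 fold was 5.50 without it. With pseudocounts of 0.1 and 10 CPM it was 6.00 and 2.46. The other carriers of this branch, named here after their values were seen, had at most 0.0333 CPM (Slc7a2), 0.166 CPM (Slc7a3) and 0.209 CPM (Slc7a14) in a gate.

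Slc7a4 (ENSMUSG00000022756, chr16:17572018-17583214) belongs to the same branch by sequence, although its transport activity is not established. It had 0 reads in all 46 CD34-negative cells and 1009 reads in the CD34-positive gate, or 33.6 CPM. Those reads lay in 10 cells, of which 7 had between 168.5 and 339 CPM and 3 had 1 or 2 reads each. The remaining 36 CD34-positive cells were at 0, so the gene was high in a few cells and absent from the count in the others. Taking a floor of 3 reads for the whole CD34-negative gate, the ratio of CD34-positive over CD34-negative was 374.55. With the counting error of both gates, the lower limit of the ratio was 286.1. The 5 highest cells held 79.0% of its reads. Its log2 fold of 5.11 was 4.73 without cell 29, the highest, and depends on the pseudocount, at 8.40 with 0.1 CPM and 2.12 with 10 CPM. Slc7a4 shares 554 exon bases with P2rx6 on the opposite strand. The strand setting of the counting is not given, and P2rx6 had 1 read in all kept cells.

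Cells with Slc7a1 and cells with Slc7a4 overlapped in part. At the equal draw 5 CD34-positive cells had both, of 20 with Slc7a1 and 8 with Slc7a4, and 23 had neither. Of the 20 cells with Slc7a1, 12 had a Kit read (22 of 46 cells had one) and 12 a Cd34 read (26 of 46). Of the 8 cells with Slc7a4, 6 had a Kit read and 6 a Cd34 read. Over the whole gates, 7 of the 8 progenitor markers tested were at least 2-fold higher in the CD34-positive gate, and Gata1 was lower (110.3 and 70.9 CPM, -0.63, or 0.32 with ERCC scaling). Of all 9 markers, 8 had reads in CD34-negative cells (Flt3 at 0) with sums of 1.09 to 4653 CPM per cell, and 9 of 9 in CD34-positive cells with sums of 278 to 22489 CPM. Of the 7 mast cell markers, 5 had reads in the CD34-positive gate, and their sum was 0 in 17 of the 20 cells with Slc7a1 before the draw and in 8 of the 10 with Slc7a4. The 6 T and NK cell markers had reads in 19 of those 20 cells (median sum 656 CPM) and in all 10 (median 887 CPM), and over the whole CD34-positive gate Nkg7 alone made up 695.8 of their 695.9 CPM, with Cd3e, Cd8a, Ncr1 and Klrb1c at 0. The part of these other genes in the transporter levels was not tested.

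The glycine carrier Slc6a9 (ENSMUSG00000028542, chr4:117834506-117875198) had the opposite pattern. Across CD34-negative cells it ran from 0 to 383 CPM with a median of 0, and across CD34-positive cells from 0 to 5.81 CPM. It was found in 14 of 46 CD34-negative cells (30.4%, 17.7% to 45.8%) and in 1 of 46 CD34-positive cells (2.17%, 0.0550% to 11.5%) at the equal draw. Before the draw 15 CD34-negative cells had reads, 12 of them at least 10. The highest were cells 17, 40, 27, 24 and 15, at 383, 246, 238, 232 and 163 CPM. Summed levels were 39.1 CPM (1308 reads) and 0.0999 CPM (3 reads, all in cell 39), a ratio of CD34-negative over CD34-positive of 392 with a counting interval of 126.8 to 2004. Its log2 fold was -5.19, or -4.85 without CD34-negative cell 17, and -7.62 and -2.28 with pseudocounts of 0.1 and 10 CPM.

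Slc6a9 is also known as a gene of red cell precursors, so hemoglobin genes were read in the same cells. The 3 hemoglobin genes Hba-a1, Hbb-bs and Hbb-bt had 3 reads in all over the 46 CD34-negative cells, of which 2 lay in the 15 cells with Slc6a9 reads. Reads in the summary categories (63.6% of all) were given to no gene, so hemoglobin reads among them would be missed. The basophil marker sums of those 15 cells ran from 14667 to 138359 CPM. Monocyte and dendritic cell markers, 8 in number, summed to a median of 192 CPM in them (1.36 to 1436) and had reads in all 15. Over all CD34-negative cells the sum per cell had a median of 295 CPM (0 to 2666). Over all CD34-positive cells the median was 4.19 CPM (0 to 813). Of these markers, Siglech and Flt3 were at 0 in CD34-negative cells, and the highest, Ccr2, stood at 493 CPM there and at 40.5 CPM in CD34-positive cells. The 8 eosinophil markers summed to a median of 67.5 CPM in the 15 cells (0 to 858), with reads in 14. The median of their sum was 55.1 CPM over all CD34-negative (0 to 1099) and 2.33 CPM over all CD34-positive cells (0 to 1496). In CD34-negative cells Epx, Prg2, Ear1 and Il5ra were at 0, and Ccr3, the highest, stood at 97.9 CPM, against 4.70 CPM in the other gate. The 6 megakaryocyte markers, nearly all Itga2b, had a median sum of 1626 CPM in the 15 cells and 1332 CPM over all CD34-negative cells. For the T and NK cell markers these medians were 1.28 and 1.43 CPM, and for the 7 B cell markers 0 and 1.18 CPM. The part of all these markers in the Slc6a9 level was not tested. On the genome Slc6a9 shares 27.8% of its exon bases with Ccdc24, 9.94% with Gm17114 and 0.895% with B4galt2, all on the opposite strand. Ccdc24 had 152 reads in the CD34-negative gate, in 2 cells that both had Slc6a9 reads, Gm17114 had 0 and B4galt2 had 4, so reads of Slc6a9 and Ccdc24 in those 2 cells cannot be told apart without the strand setting.

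**Figure D3:**
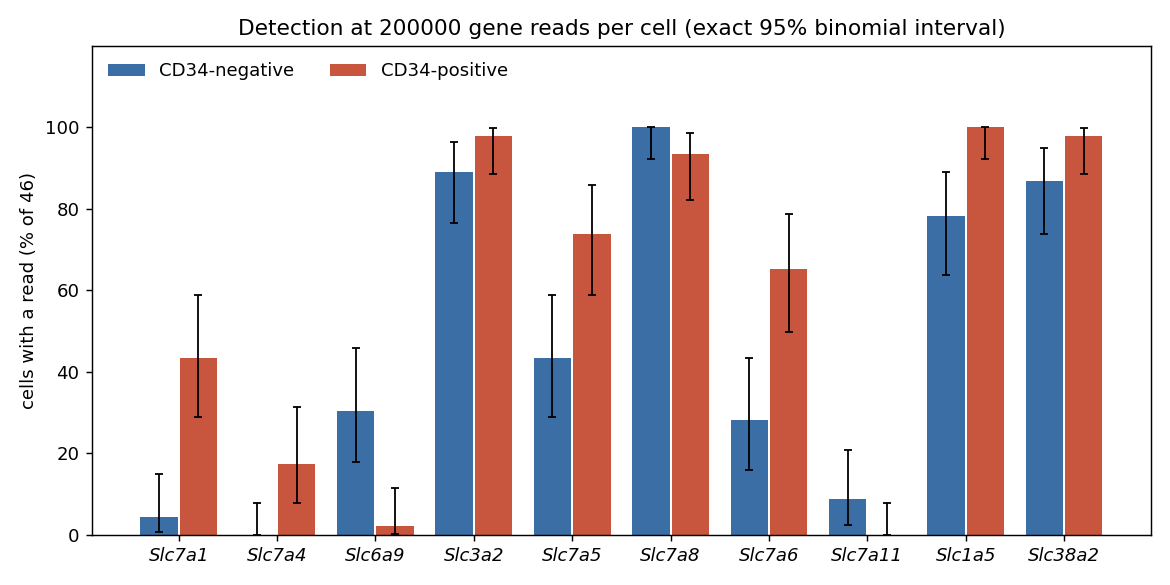
Share of the 46 kept cells of each gate with at least 1 read of each transporter after drawing 200000 gene reads per cell, with exact 95% binomial (Clopper-Pearson) intervals. Slc7a1 stands at 4.35% and 43.5%, Slc6a9 at 30.4% and 2.17%, and Slc1a5 at 78.3% and 100%.

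The heavy chain Slc3a2 and the light chain Slc7a8 were found in most cells of both gates, and the other light chains in fewer. Per length, Slc7a8 was the most abundant light chain in both gates, and its share of light chain reads was smaller in the CD34-positive gate. The shares of Slc7a5 and Slc7a6 were larger there, and more CD34-positive than CD34-negative cells held a read of them. CD34-positive cells also showed more genes of any kind at the equal draw (median 6519 against 4520.5). The heavy chain Slc3a2 differed little between gates, and Slc7a11 was near 0 in both.

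Slc3a2 (ENSMUSG00000010095, chr19:8706882-8723369) had lowest, median and highest levels of 0, 273 and 1808 CPM in CD34-negative and of 0, 220 and 1563 CPM in CD34-positive cells. The gates overlapped over nearly their whole range, and a read was found in 41 and 45 of 46 cells at the equal draw. Summed levels were 369 and 293 CPM, a log2 fold of -0.33 (-0.38 to -0.27). This direction rests on the scaling, since it was 0.63 with ERCC reads, and on which cells entered, since it was -0.0062 with cells numbered 7 to 42 only.

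The light chain Slc7a8 (ENSMUSG00000022180, chr14:54722209-54781946) carries neutral amino acids over a broader size range than LAT1. CD34-negative cells had levels of 3.80, 593 and 2603 CPM at the lowest, median and highest cell, and CD34-positive cells of 0, 220.1 and 1972 CPM. The middle ranges met only in part, with quartiles of 223.8 to 1055 CPM and of 124.5 to 372 CPM. All 46 CD34-negative and 43 of 46 CD34-positive cells had a read at the equal draw. The summed reads gave 711 and 398 CPM, a log2 fold of -0.83 (-0.88 to -0.79). One CD34-positive cell, number 43, held 15.9% of that gate's reads. The value passed 2-fold without it (-1.04), with TMM factors (-1.04) and with scran size factors (-1.01), and turned to 0.13 with ERCC scaling.

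Slc7a5 (ENSMUSG00000040010, chr8:121881150-121907694), the carrier of leucine and other large neutral amino acids, was spread unevenly. Its lowest, median and highest levels were 0, 1.47 and 565 CPM in CD34-negative and 0, 40.1 and 404 CPM in CD34-positive cells. The highest cell of all was CD34-negative, number 18, and it held 27.2% of that gate's reads. A read was found in 20 of 46 CD34-negative (43.5%, 28.9% to 58.9%) and in 34 of 46 CD34-positive cells (73.9%, 58.9% to 85.7%). The sums of 52.6 and 86.5 CPM gave a log2 fold of 0.71 (0.59 to 0.83), which was 1.12 without that cell and 1.66 with ERCC scaling, both past 2-fold.

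Slc7a6 (ENSMUSG00000031904, chr8:106168857-106198706) exchanges cationic for neutral amino acids. CD34-negative cells ran from 0 to 365 CPM with a median of 0, and CD34-positive cells from 0 to 207 CPM with a median of 24.8. It was found in 13 of 46 CD34-negative cells (28.3%, 15.99% to 43.5%) and in 30 of 46 CD34-positive cells (65.2%, 49.8% to 78.6%). As with Slc7a5, the single highest cell was CD34-negative while more CD34-positive cells held the gene. Summed levels were 28.8 and 63.3 CPM, a log2 fold of 1.11 (0.96 to 1.26). It was 0.91 with TMM factors, 0.84 with scran size factors and 0.92 with a pseudocount of 10 CPM, all under 2-fold, and 1.55 without CD34-negative cell 14 and 2.05 with ERCC scaling.

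Slc7a11 (ENSMUSG00000027737, chr3:49892526-50443614), the cystine and glutamate exchanger whose promoter letters are shown above, had 12 reads in 6 CD34-negative cells and 2 reads in 2 CD34-positive cells. The largest value in any cell was 4.68 CPM. The ratio of CD34-negative over CD34-positive was 5.39 with a counting interval of 0.771 to 77.7, so no difference between gates was detectable at this depth. At the equal draw 4 of 46 CD34-negative cells and 0 of 46 CD34-positive cells had a read, where 0 allows a share of cells with a read of up to 7.71% (exact 95% upper limit).

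Reads per kilobase of exon per 1000000 gene reads put the chains on 1 scale. Among the 4 light chains Slc7a8 made up 87.4% for CD34-negative and 68.2% for CD34-positive cells. Slc7a5 made up 8.72% and 20.0%, and Slc7a6 3.88% and 11.9%. Their sum over Slc3a2 on the same per-length scale was 1.56 in CD34-negative and 1.40 in CD34-positive cells. A heavy chain read accompanied the light chain in 17 of 20 cells (Slc7a5), 12 of 13 (Slc7a6), 41 of 46 (Slc7a8) and 3 of 4 (Slc7a11) in the CD34-negative gate, where 41 of 46 cells had one in any case. For CD34-positive cells the counts were 34 of 34, 29 of 30 and 42 of 43, with 45 of 46 cells having one in any case.

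**Figure D4:**
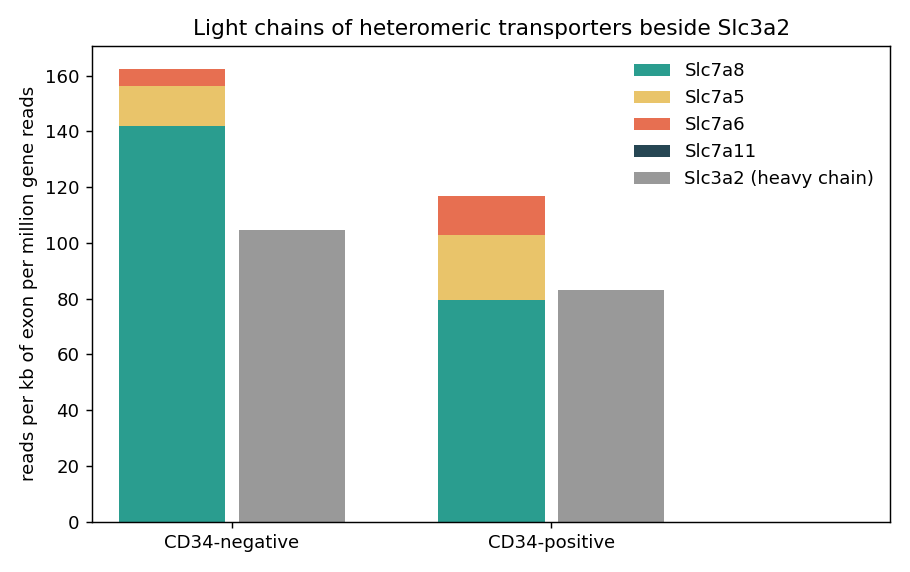
Reads per kilobase of exon per 1000000 gene reads for the 4 light chains (stacked) and the heavy chain Slc3a2 (grey), summed over 46 cells per gate. Slc7a8 stands at 142.0 (CD34-negative) and 79.6 (CD34-positive), Slc7a5 at 14.2 and 23.3, and Slc7a6 at 6.30 and 13.8.

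Within single cells the balance of Slc7a5 and Slc7a8 was broad. Per length, Slc7a5 made up a median of 0.185% of the pair in CD34-negative cells (quartiles 0% and 13.8%, highest 71.2%) and 19.1% in CD34-positive cells (quartiles 0.0910% and 52.0%, highest 100%). Slc7a5 exceeded Slc7a8 in 4 CD34-negative and in 13 CD34-positive cells. No Slc7a5 read was counted in 22 CD34-negative and 12 CD34-positive cells, and 1 CD34-positive cell had Slc7a5 reads and no Slc7a8 read.

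The glutamine carriers were found in most cells, and their medians over cells lay further apart than their sums in the case of Slc1a5. Slc1a5 (ENSMUSG00000001918, chr7:16781340-16798274) exchanges glutamine, serine and other small neutral amino acids. Its lowest, median and highest levels were 0, 29.5 and 1043 CPM in CD34-negative and 9.82, 253 and 1127 CPM in CD34-positive cells. Every CD34-positive cell had a read at the equal draw, against 36 of 46 CD34-negative cells (78.3%, 63.6% to 89.1%). In the CD34-negative gate the 5 highest cells held 50.4% of the reads, and in the CD34-positive gate 34.5%. The sums of 196 and 316 CPM gave a log2 fold of 0.69 (0.62 to 0.75), or 1.65 with ERCC scaling and 0.48 with TMM factors.

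Slc38a2 (ENSMUSG00000022462, chr15:96687392-96699730), a sodium-coupled carrier that is itself known to respond to amino acid shortage, had levels of 0, 189 and 847 CPM at the lowest, median and highest CD34-negative cell. The CD34-positive values were 0, 272 and 1408 CPM, so the gates overlapped over most of their range. A read was found in 40 and 45 of 46 cells. Summed levels were 225 and 321 CPM, a log2 fold of 0.51 (0.45 to 0.57), or 1.47 with ERCC scaling and 0.30 with TMM factors or scran size factors.

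Ordered by the same per-length level, the CD34-negative gate had Slc7a8 (142.0), Slc3a2 (104.5), Slc1a5 (46.9), Slc38a2 (25.5), Slc7a5 (14.2), Slc6a9 (7.61), Slc7a6 (6.30), Slc7a1 (0.0571), Slc7a11 (0.0258) and Slc7a4 (0). In the CD34-positive gate the order was Slc3a2 (83.2), Slc7a8 (79.6), Slc1a5 (75.7), Slc38a2 (36.3), Slc7a5 (23.3), Slc7a6 (13.8), Slc7a4 (8.09), Slc7a1 (4.205), Slc6a9 (0.0194) and Slc7a11 (0.00478). The quartile ranges over cells of every pair of neighbours in either order overlapped. From Slc7a6 downward in each gate they met only at 0, because many cells had no read. Overlap there cannot tell whether neighbours stood apart. In the CD34-positive gate, for example, the neighbours Slc7a1 and Slc6a9 were found in 20 and 1 of 46 cells at the equal draw. The first 5 places held the same 5 genes in both gates.

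Levels of the transporters went together only weakly from cell to cell. Among genes with a read in 50% or more of the 46 cells of a gate, Spearman's rho between 2 transporters ran from -0.14 to 0.35 in CD34-negative and from -0.24 to 0.34 in CD34-positive cells. The highest was Slc7a5 with Slc1a5 in the CD34-negative gate, and Slc7a8 with Slc3a2 in the CD34-positive gate. At this depth and number of cells such values are no finding. The rho of each with the summed G2/M phase genes lay between -0.18 and 0.30. Slc7a5 had a rho with gene reads per ERCC read of 0.31 in CD34-negative and 0.34 in CD34-positive cells, and Slc7a8 of -0.31 and -0.12. That ratio is higher in cells with more RNA. With the number of genes detected, rho was 0.34 (CD34-negative) and 0.38 (CD34-positive) for Slc7a5 and -0.27 in both gates for Slc7a8. The part of either measure in the levels was not tested.

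The genes whose level across cells was most like that of a transporter were looked up among the genes with a read in 50% or more of a gate's cells, 4368 for CD34-negative and 7017 for CD34-positive cells. They are a description over 46 cells, in which both levels of a pair are divided by the same cell's gene reads, and the most negative values were about as large as the highest. The highest rho in the CD34-positive gate was 0.66, of Slc7a8 with Sytl3, while the lowest for Slc7a8 was -0.62. Next for Slc7a8 were Kctd10 (0.60) and Adgre5 (0.55). For Slc1a5 they were Psat1 (0.55), an enzyme of serine synthesis, Anapc16 (0.53) and Arrdc1 (0.52), and for Slc7a5 they were Cdk5 (0.57), Slc38a10 (0.56) and BC017158 (0.54). For Slc3a2 they were Mocos (0.58), Cdh1 (0.57) and Ccr1 (0.53). In the CD34-negative gate Slc7a8 went with Diaph1 (0.63) and Pnpla7 (0.50), and Slc7a5 with Wdfy4 (0.56), Rpn1 (0.54) and Nfyb (0.53). No gene was on the lists of both gates for the same transporter. No lower limit of level was set here, and several of these genes had medians near 0. In CD34-positive cells these were Sytl3 (1.53 CPM), Cdk5 (1.75) and BC017158 (0.585). In CD34-negative cells they were Wdfy4 (1.12 CPM), Rpn1 (1.94) and Nfyb (0.603). Their rho rests on many cells with few or no reads.

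Genes that sense or use amino acids were set beside the transporters as lists. Of the 20 cytosolic aminoacyl-tRNA synthetases, which load amino acids on tRNA, all passed the filter, 10 were at least 2-fold higher in the CD34-positive gate and 0 at least 2-fold lower. The shares over all genes, against which this and the lists below can be read, were 21.7% and 10.1%. The median log2 fold of the synthetases was 0.99 (0.40 to 1.70), against 0.19 for all genes. Aars stood at 13.4 and 71.8 CPM (2.34), Rars, the synthetase for arginine, at 8.10 and 38.9 CPM (2.13) and Wars at 12.6 and 57.6 CPM (2.10). At the other end Sars (-0.61), Gars, the synthetase for glycine (-0.48), and Yars (-0.32) were lower in the CD34-positive gate by gene reads, and higher with ERCC scaling (0.35, 0.47 and 0.62).

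Of the 23 genes of ATF4 and its targets, 16 passed the filter, with 7 at least 2-fold higher, 2 at least 2-fold lower and a median of 0.70 (0.07 to 1.68). That median was 0.16 with scran size factors, 0.43 as a mean of per-cell CPM and 1.64 with ERCC scaling. The higher ones included Atf4 itself at 64.1 and 153.1 CPM (1.24), found in 19 and 37 of 46 cells, and the serine and folate enzymes Phgdh (2.51 and 22.2 CPM, 2.72), Psat1 (16.9 and 87.5 CPM, 2.31) and Mthfd2 (4.51 and 20.2 CPM, 1.94). The lowest folds of the list were those of Ddit4 at 20.6 and 2.80 CPM (-2.51), Sesn2 at 55.6 and 21.3 CPM (-1.34) and, within 2-fold, Ddit3 at 49.9 and 35.8 CPM (-0.47, or 0.48 with ERCC scaling). Asns, asparagine synthetase, was near absent in both gates at 0.239 and 1.76 CPM.

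**Figure D5:**
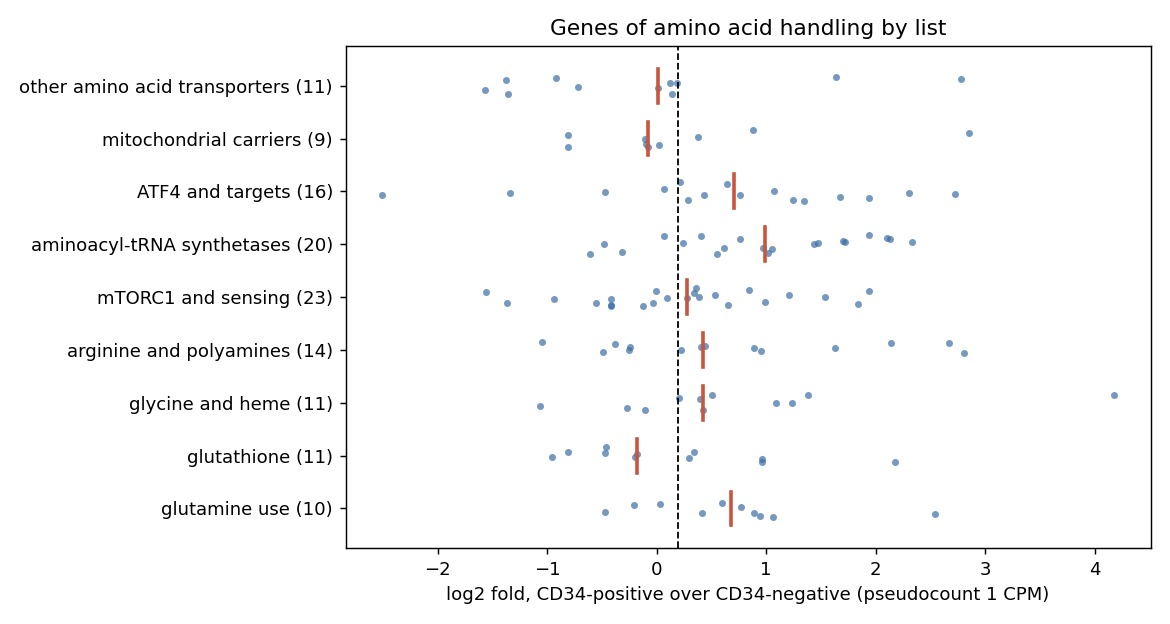
Log2 fold (CD34-positive over CD34-negative, pseudocount 1 CPM) of each gene that passed the filter (reads in 10 or more cells), by list with the number of such genes in brackets. Red bars are list medians and the dashed line is the median of all genes (0.19); the synthetases stand at 0.99 and the other amino acid transporters at 0.02.

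Other amino acid transporters of the plasma membrane and lysosome had folds in both directions, 6 of 11 above 0 by gene reads and 8 of 11 with ERCC scaling. Of 28 genes listed, 27 were matched in the table and 11 passed the filter, 2 were at least 2-fold higher, 3 at least 2-fold lower, and the median was 0.02 (-1.38 to 1.64), or -0.18 without CD34-positive cell 30 and 0.98 with ERCC scaling. Slc6a13, a carrier of GABA and taurine, stood at 1.64 and 17.1 CPM (2.78), Slc36a4, a carrier of proline and tryptophan, at 2.75 and 10.7 CPM (1.64) and the glutamine carrier Slc38a1 at 191 and 218 CPM (0.19). Lower in the CD34-positive gate were Slc38a7 (-1.57), Slc15a4 (-1.38) and Slc38a6 (-1.36). Slc43a1, a further carrier of large neutral amino acids named after its values were seen, had no read in CD34-negative cells and stood at 11.9 CPM in the CD34-positive gate, in 5 cells.

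The lists by substrate had wide intervals around their medians, all of which included the 0.19 of all genes. Of 19 arginine and polyamine genes 14 passed the filter, with 4 higher and 1 lower past 2-fold and a median of 0.43 (-0.38 to 2.14). Ornithine aminotransferase Oat (8.43 and 64.8 CPM, 2.80), ornithine decarboxylase Odc1 (found in 3 and 22 of 46 cells, 2.67) and spermine synthase Sms (2.14) were highest, and Sat1, which acetylates polyamines for export, was lowest (206 and 99.0 CPM, -1.05, or -0.091 with ERCC scaling). Of 14 glycine and heme genes 11 passed, with 4 higher and 1 lower and a median of 0.42 (-0.27 to 1.38), which ran from 0.22 without CD34-positive cell 44 to 0.69 without CD34-negative cell 15. Shmt1, which interconverts serine and glycine, was highest, found in 1 and 19 of 46 cells (4.18), in the gate where Slc6a9 was near 0.

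Of 12 glutamine genes 10 passed the filter, with 2 higher, 0 lower and a median of 0.68 (-0.21 to 1.0603), led by the CTP synthetase Ctps at 1.61 and 14.3 CPM (2.54). The 13 glutathione genes had 11 tested, 1 higher, 0 lower and a median of -0.18 (0.11 without CD34-negative cell 6, 0.072 as a mean of per-cell CPM and 0.78 with ERCC scaling), and the synthetase Gss was lowest among those named (117.7 and 60.3 CPM, -0.95, or 0.0015 with ERCC scaling). Of 24 mTORC1 and sensing genes 23 passed, with 4 higher, 2 lower and a median of 0.28, or 0.14 without CD34-positive cell 43. Nprl3 (1.94) and Depdc5 (1.84), parts of a complex that restrains mTORC1, and the kinase Rps6kb1 (1.53) were highest. The third subunit of that complex, Nprl2, named after its values were seen, was at 61.9 and 46.2 CPM (-0.41, or 0.54 with ERCC scaling), and Lamtor3 (-1.56) and Sesn1 (-1.37) were lowest. The 13 mitochondrial amino acid carriers had 9 tested, 1 higher (Slc25a40, 2.86), 0 lower and a median of -0.08, which was 0.35 without CD34-negative cell 38, 0.26 with cells numbered 7 to 42 only and 0.83 with ERCC scaling. G2/M phase genes differed more than any of these, with 19 of 22 past 2-fold higher and a median of 2.17, and their part in the transporter levels was not tested.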

How the data were processed

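RNA was measured in 94 single cells. The authors deposited 1 table of whole-number read counts per gene and cell, not normalized. GSNAP, HTSeq 0.5.3p3 and the build mm10 are named in the submitters' processing notes. The annotation release and the strand setting are not given in the sources used here. Summary categories held 63.6% of reads and stayed out of all sums. Symbols were matched for 45143 of 46078 identifiers. Positions and exon lengths are from GENCODE M21 on GRCm38, the same build. A cell was kept if it had 50000 or more gene reads, 1000 or more genes with a read, under 20% mitochondrial and under 50% ERCC reads. Cells were sorted singly into wells, so no doublet caller and no clustering were used.

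From the deposited counts, reads were summed per gate and divided by the gate total, and folds use a pseudocount of 1 CPM. Sums have exact Poisson and shares exact Clopper-Pearson 95% intervals. A fold's interval pairs the upper limit of 1 gate with the lower limit of its counterpart, and list medians have intervals from order statistics. Detection was compared after drawing 200000 gene reads per cell without replacement. The fold of summed reads, with known folds set in genes of at least 10 CPM, and the draw were tested on simulated data. The intervals, correlations and per-length shares were not. TMM factors from edgeR 4.0.16, used for nothing else, and size factors from scran 1.30.0 served as alternatives in R 4.3.3. The other steps ran in Python 3.11.15 with pandas 2.3.3, scipy 1.17.1, numpy 2.4.6 and matplotlib 3.10.9. Other alternatives were other cell filters, pseudocounts, draw depths, detection at 10 reads, a mean of per-cell CPM, ERCC scaling, and leaving out cells.

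The transporters and all lists were chosen with earlier results of these data known. Named were all 10 transporters. From each list the 3 highest and 3 lowest folds could be named among genes of at least 10 CPM in a gate that had reads in 10 or more kept cells, and also Atf4, Asns and Ddit3. For transporters with a read in 50% or more of a gate's cells, the 3 genes with the highest rho could be named where rho was at least 0.5. Cd34 and Kit were gate checks. The list of erythroid markers is not reported here.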

Additional observations from a re-analysis of the deposited data

How the results depend on the processing

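No paired analysis was possible because cell numbers link no cell of 1 gate to a cell of the other. With ERCC scaling 6 transporters were at least 2-fold higher, Slc7a8 turned to 0.13 and Slc3a2 to 0.63, and the medians were 1.94 for the synthetases, 1.23 for mTORC1 genes, 1.62 for glutamine genes and 1.04 for all genes. The median of all genes was 0.021 with TMM factors, 0.00048 with scran size factors, 0.23 and 0.089 with pseudocounts of 0.1 and 10 CPM, 0.31 when each gene lost its highest cell, and 0.047 with no filter on low genes. In place of 1 transporter, 2 were at least 2-fold lower with TMM factors and with scran size factors (Slc7a8), with a pseudocount of 0.1 CPM (Slc7a11, at -1.46), and without CD34-positive cell 43. Leaving out cells 1 at a time gave 1 to 2. Of all genes tested, 1392 were at least 2-fold higher and 717 lower with a pseudocount of 10 CPM, and 6460 and 280 with ERCC scaling, in place of 2698 and 1253. The median of ATF4 and its targets was 0.16 with scran size factors, that of mTORC1 genes -0.024 and that of glutamine genes 0.29. At 1.5-fold in place of 2-fold 5 were higher and 2 lower, beside 33.7% and 19.5% of all genes. Of 130 alternative values of the transporters' folds, 74 moved by less than their counting interval, 54 moved by more with the same sign and 2 changed sign. All 100 alternative values of rho between transporters stayed within the approximate 95% interval of the reported rho. Each gate is 1 sample, so differences between mice and between gates cannot be told apart. Where Slc7a4, Slc7a11 or Slc6a9 had few or no reads, depth limits the fold to a bound or a wide interval.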

Other observations

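Values outside the comparisons came from the 2 cells left out for low depth. CD34-negative cell 20, with 24565 gene reads, had 0 reads of the 10 transporters. CD34-positive cell 3, with 31504 gene reads, had 27, of which 9 were of Slc1a5, 9 of Slc38a2, 4 of Slc7a5, 3 of Slc7a8 and 2 of Slc3a2.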
